A study of Mus musculus with 4 samples.

Results

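The genes described here carry out or control the making, uptake and export of cholesterol in microglia, resident immune cells, of the mouse retina. They were chosen by name, as 33 genes: 18 enzymes of synthesis, 3 genes of control by the transcription factor SREBP-2, and 12 genes of export, storage and control by the liver X receptors (LXR). Of the 33, 30 were found among the 15586 genes of the deposited expression table, namely 16 enzymes, 3 SREBP-2 genes and 11 export and LXR genes. Tm7sf2, Hsd17b7 and Nr1h3 were not analysed here.

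Microglia were sorted on EYFP from retinas of 2-month-old mice, with 200 cells in each library. All mice carried Cx3cr1CreER/+, a tamoxifen-inducible Cre recombinase in 1 copy of the Cx3cr1 gene, which blood monocytes and other macrophages also use, together with floxed alleles of the gene for the kinase TAK1 (Tak1fl/fl in the protocol). The 2 control libraries came from mice injected with corn oil for 5 days, and the 2 TAK1 knockout libraries from mice injected with tamoxifen at 75 mg/kg for 5 days, so deletion and drug cannot be told apart. The genotype label of the knockout samples reads Tak3fl/fl; the groups are called here what their titles call them. No label says whether the 2 libraries of a group came from different mice, so p-values measure the spread between these libraries, which may be technical.

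Cells make cholesterol from acetyl-CoA through mevalonate, farnesyl diphosphate, squalene and lanosterol. When membrane cholesterol is low, SREBP-2 switches on the genes of this route and of lipoprotein uptake; when oxysterols build up, LXR switch on the transporters ABCA1 and ABCG1, which pass cholesterol to apolipoproteins. Microglia take up lipid-rich debris and can esterify cholesterol for storage or export it.

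Promoter sequences are shown first, since they describe the members without any use of expression. RefSeq promoters (build GRCm38.p6) were matched for 26 of the 33 members, and the 250 bases before each start were searched on both strands. The letters ATTGG, the CCAAT box read from the other strand, bound by NF-Y, a partner of SREBP-2, stood in 14 of 15 synthesis genes (93.3%), in both SREBP-2 genes with a promoter, and in 5 of 9 export and LXR genes (55.6%), against 37.5% of all 27025 genes. The sterol regulatory element TCACNCCAC, the type of site SREBP binds, stood in 1 of the 15 synthesis genes, Hmgcs1, and in 1.22% of all genes. A pair of half-sites of the LXR type, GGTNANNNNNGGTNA, stood in 2 of the 9 export and LXR genes, Abca1 and Srebf1, and in 0.707% of all genes. No match of 1 motif overlapped another in the stretches below. A match describes letters and shows no binding. The stretches below run on the gene's own strand, with matched letters in capitals; Hmgcs1 shows the sterol element beside ATTGG, Mvk and Ebp show repeated ATTGG, Insig1 a single one, and Abca1 and Srebf1 the half-sites, read here on the opposite strand.
Hmgcs1, chr13:119690161-119690240, plus strand: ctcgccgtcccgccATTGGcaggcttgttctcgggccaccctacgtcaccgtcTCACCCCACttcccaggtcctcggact
Mvk, chr5:114444079-114444268, plus strand: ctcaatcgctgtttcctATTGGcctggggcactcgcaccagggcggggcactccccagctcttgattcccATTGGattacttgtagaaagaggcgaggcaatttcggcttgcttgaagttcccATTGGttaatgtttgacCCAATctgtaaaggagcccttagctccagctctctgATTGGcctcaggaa
Ebp, chrX:8193543-8193702, minus strand: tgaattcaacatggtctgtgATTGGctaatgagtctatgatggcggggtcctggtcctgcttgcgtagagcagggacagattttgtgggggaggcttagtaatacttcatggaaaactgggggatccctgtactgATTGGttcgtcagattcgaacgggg
Insig1, chr5:28071172-28071231, plus strand: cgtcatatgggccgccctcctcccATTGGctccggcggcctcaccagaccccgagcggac
Abca1, chr4:53159926-53159995, minus strand: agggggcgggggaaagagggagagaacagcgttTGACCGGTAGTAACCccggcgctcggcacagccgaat
Srebf1, chr11:60210612-60210681, minus strand: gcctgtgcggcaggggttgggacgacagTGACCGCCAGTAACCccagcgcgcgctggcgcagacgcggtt

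Levels were FPKM, fragment numbers divided by transcript length and by the total mapped in that library, with 1 value per gene and library; read depth is unknown. FPKM summed to 812009 to 969700 per library, and 3777 to 4481 genes reached 1 FPKM in the controls against 5628 to 6055 in the knockouts. The targeted gene, Map3k7, was at 0.03 and 0 FPKM in controls against 0.02 and 0.08 in knockouts, and so does not check the labels. Exons of 8 members overlap a gene on the opposite strand and those of 5 a gene on the same strand, and such members are uncertain, since the counting rule is not given. All 12 microglia markers were above 1 FPKM in every library, with sums of 16173 and 17314 FPKM in controls against 40316 and 26153 in knockouts. Markers of other cells were also measured. Where counts are given, a gene lies above or below when its 2 groups do not overlap, as 27.8% of all tested genes did above both controls and 11.4% below. Rod photoreceptor markers summed to 2217 and 3226 FPKM in controls against 6197 and 9232 in knockouts (10 of 12 above both controls), and bipolar cell markers to 4.36 and 180 against 907 and 760 (4 of the 5 tested above). Monocyte markers summed to 1099.9 and 1530 FPKM in controls against 58.8 and 4.14 in knockouts (3 of 7 tested below both controls, none above), with Ccr2 at 0.59 and Clec12a at 0.48 in knockout 2. Müller glia markers summed to 363 and 432 FPKM against 1055 and 696 (1 of 8 tested above, 1 below, 6 overlapping), but to 278 and 115 against 281 and 97.5 without Glul. The sums of perivascular macrophage markers were 2190 and 1553 against 190 and 833 (1 of 7 tested below, 6 overlapping), but 576 and 6.72 against 0.75 and 678 without Ms4a7, with Cd163 at or below 0.02 in every library. The part of these cells in the results below was not tested, and fewer cells of a type cannot be told apart from less RNA per cell.

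Knockout was compared with control on log2(FPKM + 1) with limma's moderated test over the 7823 genes whose mean over the 4 libraries was at least 1 FPKM, which 24 of the 33 members reached. No member passed at a Benjamini-Hochberg adjusted p of 0.05 over all genes (smallest adjusted p = 0.559), and no gene of the table did (0% called in either direction). At an unadjusted p under 0.05, 2 of the 24 members were higher in the knockouts, Fdft1 and Lpcat3 (8.33%, against 6.07% of all tested genes), and 1 was lower, Fdps (4.17%, against 1.62%). The filter took the mean over both groups, so a gene could pass through 1 group alone. Fdft1, Lpcat3 and Fdps passed only through the group where they were high. Differences below are in log2(FPKM + 1), knockout less control, a scale that understates the change of low genes, and a member is said to lie above or below the controls when its groups do not overlap. All tested genes together had a median difference of 0.94, with 27.8% above both controls and 11.4% below, and a value near 0 was common in genes that the other library of the group showed at a high level. Such a value is no evidence of a silent gene.

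**Figure D1:**
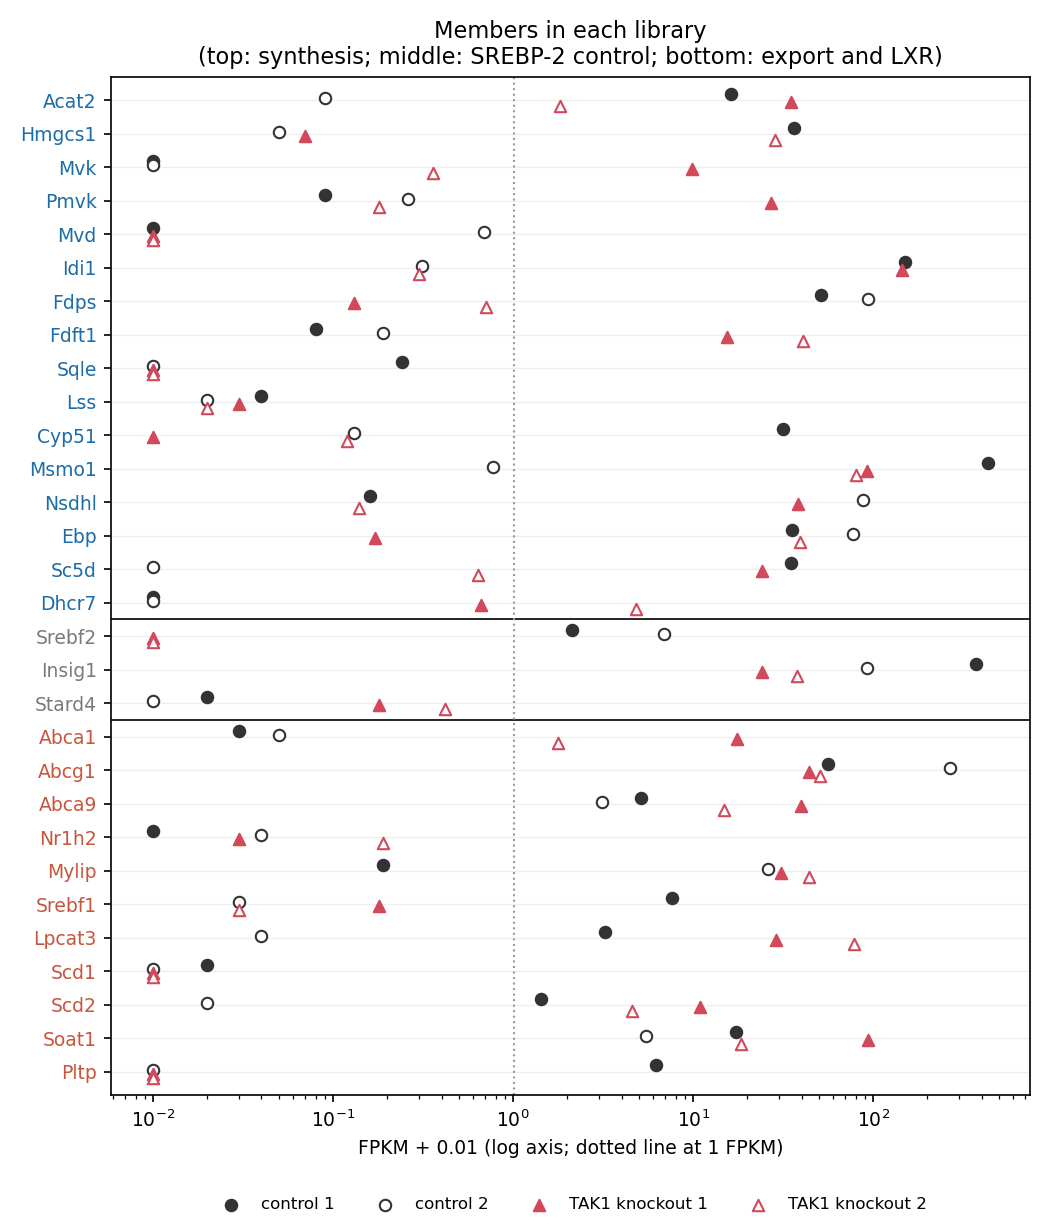
FPKM of the 30 members in the table (rows) in each of the 4 libraries, on a log axis after adding 0.01; circles are controls, triangles TAK1 knockouts, filled for replicate 1 and open for replicate 2. Idi1 and Sc5d sit high in the filled symbols and under 1 FPKM in the open ones, whereas both Insig1 knockout values lie left of both controls and both Lpcat3 knockout values right of them.

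The synthesis enzymes as a list did not separate the groups. Of 13 tested, 3 lay above both controls (Mvk, Fdft1 and Dhcr7; 23.1%, against 27.8% of all tested genes), 2 below (Fdps and Cyp51; 15.4%, against 11.4%), and 8 overlapped. Mvk, Fdft1 and Dhcr7 averaged under 1 FPKM in the controls, and Fdps and Cyp51 in the knockouts. Each of these passed the filter only through the group where it was high, and all tested genes passed the same filter. The median difference of the 13 enzymes was 0.09, against 0.94 for all tested genes. That median was set by single libraries: it was 2.31 without control 1 and 2.01 without knockout 2, but -2.32 without control 2 and -0.62 without knockout 1. All tested genes had medians of 1.38, 0.96, 1.04 and 0.64 in these settings, in the same order. With a single library on 1 side, more genes do not overlap. Enzymes above the controls numbered 7 of 12 tested without control 1, where 45.3% of all tested genes were above. Enzymes below numbered 6 of 13 without control 2, where 27.3% of all tested genes were below, and 4 of 11 without knockout 1, where 21.3% were.

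The first steps build mevalonate and its phosphates. Acat2, the thiolase that joins acetyl-CoA units, read 16.3 and 0.08 FPKM in control 1 and 2 and 35.0 and 1.81 in knockout 1 and 2. Hmgcs1, the synthase of the next step, read 36.4 and 0.04 in controls against 0.06 and 28.4 in knockouts. For both genes the libraries of a group stood far apart and the groups overlapped. Mvk, mevalonate kinase, was listed at 0 in both controls and read 9.79 and 0.35 FPKM in the knockouts. Pmvk, the kinase after it, read 0.08 and 0.25 against 27.0 and 0.17. In each of these kinases knockout 1 was the only library above 1 FPKM. Mvd, the decarboxylase that follows, did not pass 0.68 FPKM in any library and was not tested.

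Around farnesyl diphosphate, the branch point to sterols and to prenylated proteins, single enzymes differed most. Idi1, the isomerase that balances the isoprene building blocks, read 149 and 0.30 FPKM in controls against 145 and 0.29 in knockouts. It was high in 1 library of each group and near 0 in the other, and its difference was -0.02 ± 3.14 (SE). Fdps, farnesyl diphosphate synthase (chromosome 3, 89093588 to 89101959, GRCm38), read 51.1 and 93.2 FPKM in controls against 0.12 and 0.70 in knockouts. Both controls were high and both knockouts under 1 FPKM, with a difference of -5.67 ± 1.53 (SE; limma unadjusted p = 0.0102, adjusted p = 0.559). Its exons share 1124 of 4208 bases with Gm43738, a gene model on the same strand not analysed here. The difference of Fdps stayed between -6.09 and -5.24 when any 1 library was left out. With the pseudocount it moved more, to -7.36 at 0.1 FPKM and -3.78 at 5 FPKM. Fdft1, squalene synthase, the first enzyme given over to sterols (chromosome 14, 63145150 to 63179578, GRCm38), read 0.07 and 0.18 FPKM in controls against 15.4 and 40.7 in knockouts. Both knockouts stood above both controls, with a difference of 4.54 ± 1.63 (SE; limma unadjusted p = 0.0319, adjusted p = 0.587). Exons of Fdft1 share 774 of 4227 bases with Ctsb, the cathepsin B gene on the opposite strand, which read 404 and 389 FPKM in controls against 951 and 549 in knockouts. Whether counting used strand is not given, so reads of Fdft1 and Ctsb cannot be told apart in the shared bases. Ggps1, which makes geranylgeranyl diphosphate for protein prenylation from the product of Fdps, read 0.18 and 0.14 FPKM in controls against 15.6 and 61.1 in knockouts (difference 4.79 ± 1.67, SE; limma adjusted p = 0.582). Ggps1 passed the filter only through the knockouts.

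From squalene onward, most enzymes were high in 1 library of a group and near 0 in the other. Sqle, squalene epoxidase, did not pass 0.23 FPKM in any library, and Lss, lanosterol synthase, did not pass 0.03. Neither was tested. Cyp51, the demethylase of lanosterol, read 31.5 and 0.12 FPKM in controls against 0 and 0.11 in knockouts, so it counts as below the controls by 0.01 FPKM between control 2 and knockout 2. Msmo1, a sterol methyl oxidase, reached the highest level of any member, 434 FPKM in control 1, but 0.76 in control 2, and 92.5 and 80.1 in the knockouts. The knockouts were close to each other and lay between the controls. Nsdhl, a sterol dehydrogenase, read 0.15 and 87.2 FPKM in controls against 38.1 and 0.13 in knockouts. Ebp, a sterol isomerase, read 35.5 and 76.7 FPKM in controls against 0.16 and 39.1 in knockouts; knockout 2 fell between the controls. Sc5d, a sterol desaturase, read 35.1 and 0 FPKM in controls against 24.2 and 0.63 in knockouts. Dhcr7, a reductase at the end of the route, was listed at 0 in both controls and read 0.65 and 4.78 FPKM in the knockouts.

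The set of enzymes that reached 1 FPKM differed between the libraries of each group. At 1 FPKM or more there were 8 and 3 of the 16 enzymes in controls against 8 and 6 in knockouts. Both controls shared 2 of these, Fdps and Ebp, both knockouts shared 3, and none of the 13 tested reached 1 FPKM in all 4 libraries, where 26.4% of all tested genes did. Hmgcs1, Idi1, Nsdhl and Sc5d reached it in exactly 1 control and 1 knockout. The median log2(FPKM + 1) of the 13 tested enzymes was 5.02 and 0.24 in controls against 4.03 and 0.77 in knockouts, and that of all tested genes 2.12 and 0.58 against 3.84 and 3.42. In 11 of the 13 enzymes (84.6%) the gap between the libraries of a group, taking the wider of the 2 groups, was larger than the difference between groups, against 78.9% of all tested genes.

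**Figure D2:**
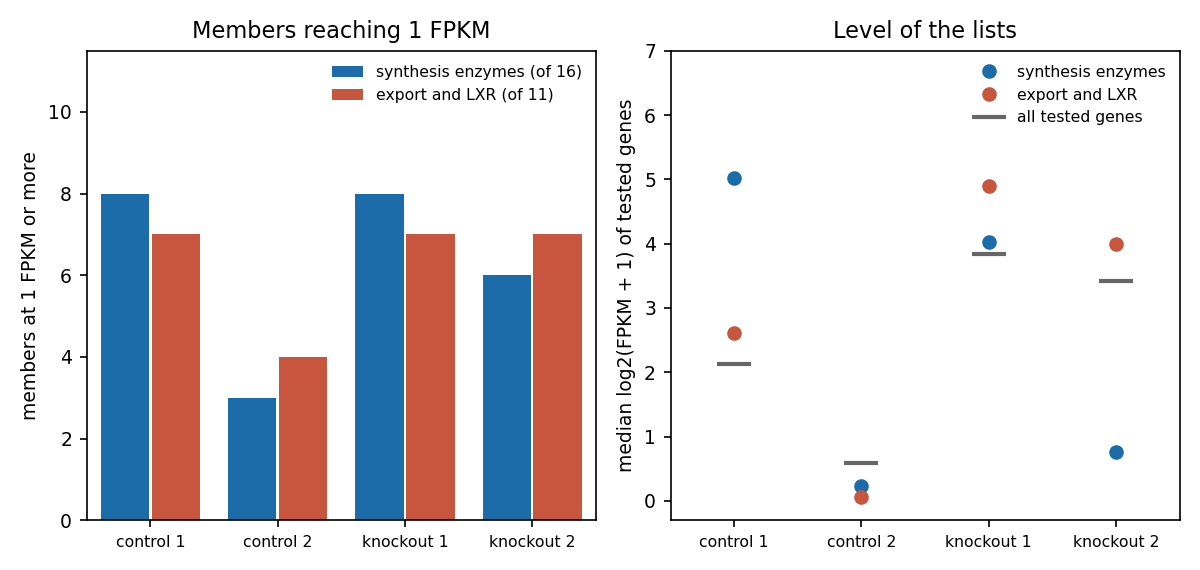
Left, number of synthesis enzymes (of 16) and of export and LXR genes (of 11) at 1 FPKM or more in each library. Right, median log2(FPKM + 1) of the tested genes of each list and of all tested genes; the enzymes are at 5.02 and 4.03 in control 1 and knockout 1 but at 0.24 and 0.77 in control 2 and knockout 2.

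Of the 3 genes of SREBP-2 control, both that were tested, Insig1 and Srebf2, lay below both controls (11.4% of all tested genes did), and neither passed the test. Insig1, which retains the SREBP complex in the endoplasmic reticulum and is itself an SREBP target (chromosome 5, 28071363 to 28078662, GRCm38), read 372 and 92.6 FPKM in controls against 24.2 and 37.9 in knockouts. It was among the few members above 1 FPKM in all 4 libraries, with means of 232 ± 198 and 31 ± 9.69 FPKM (SD, n = 2 each) and a difference of -2.58 ± 1.13 (SE; limma unadjusted p = 0.0629, adjusted p = 0.677). Both knockouts lay below both controls, and the difference ran from -3.58 to -1.58 when any 1 library was left out. Srebf2, which encodes SREBP-2, read 2.11 and 6.85 FPKM in the controls and was listed at 0 in both knockouts (difference -2.30 ± 1.54, SE; limma adjusted p = 0.698). Srebf2 passed the filter only through the controls. Stard4, a sterol transporter, was under 1 FPKM throughout, at 0.01 and 0 in controls against 0.17 and 0.41 in knockouts, and was not tested.

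Insig2, the relative of Insig1, read 33.97 and 0.25 FPKM in controls against 68.3 and 32.4 in knockouts. Erlin1, a membrane protein of the endoplasmic reticulum that binds cholesterol, read 36.2 and 0.04 against 40.0 and 35.2. In Insig2 and Erlin1 control 2 alone was near 0.

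Most tested export and LXR genes lay above the controls. Of 9 tested, 6 lay above both controls (66.7%, against 27.8% of all tested genes), 1 below (11.1%, against 11.4%) and 2 overlapped, and the median difference was 2.34, against 0.94 for all tested genes. Abca1 and Scd2, among these 6, averaged 0.03 and 0.71 FPKM in the controls and passed the filter only through the knockouts. Lpcat3, also among the 6, read 3.22 and 0.03 FPKM in the controls and needed its knockout values to pass as well. The median difference was 1.25 to 2.93 when any 1 library was left out. The count above depended on scaling: after quantile normalization it was 2 of 9, where 18.1% of all tested genes lay above, with a median of 0.90 against -0.10 for all tested genes. After median ratio scaling it was 4 of 9, where 20.2% of all tested genes lay above, with a median of 1.56 against 0.17. None of the 9 passed the test (limma adjusted p = 0.595 to 0.7). In the same libraries rod markers also lay above the controls in 10 of 12, and their part in these values was not tested.

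Among the transporters, Abca1, which loads cholesterol onto apolipoproteins and carries the half-sites shown above, read 0.02 and 0.04 FPKM in controls against 17.4 and 1.77 in knockouts. Both knockouts stood above, the first by far the more (difference 2.79 ± 1.73, SE; limma adjusted p = 0.698). Like those of other members near 0 in a group, this difference moved with the pseudocount, to 5.46 at 0.1 FPKM and 1.29 at 5 FPKM. Abcg1, its partner in export to lipoproteins, went the other way, at 55.7 and 266 FPKM in controls against 43.7 and 50.5 in knockouts. Its knockouts agreed, control 1 was close to them, and the difference was -1.36 ± 1.15 (SE; limma adjusted p = 0.698); after rescaling the libraries to equal sums its groups overlapped, and the difference was -0.24 without control 2. Abca9, another transporter of the ABCA family (chromosome 11, 110100749 to 110168196, GRCm38), read 5.10 and 3.10 FPKM in controls against 39.5 and 14.9 in knockouts. It was measured above 1 FPKM in every library, with means of 4.10 ± 1.41 and 27.2 ± 17.4 FPKM (SD, n = 2 each) and a difference of 2.34 ± 1.53 (SE; limma adjusted p = 0.698), which was 0.75 after quantile normalization and 1.56 after median ratio scaling.

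Of the receptors, Nr1h2, which encodes LXR beta, did not pass 0.18 FPKM in any library and was not tested. Of the LXR targets, Lpcat3, which puts unsaturated chains into membrane phospholipids (chromosome 6, 124663027 to 124704418, GRCm38), read 3.22 and 0.03 FPKM in controls against 28.8 and 78.3 in knockouts. Both knockouts were well above both controls, with a difference of 4.54 ± 1.66 (SE; limma unadjusted p = 0.0339, adjusted p = 0.595) and a range of 3.53 to 5.56 when any 1 library was left out. Its exons share 334 of 3268 bases with Emg1 on the opposite strand, which read 81.8 and 227 FPKM in controls against 124 and 107 in knockouts, with the knockouts between the controls. Mylip, a ubiquitin ligase that limits lipoprotein uptake, read 0.18 and 26.0 FPKM in controls against 30.6 and 43.8 in knockouts, close to control 2. Scd2, a desaturase that makes monounsaturated fatty acids, read 1.41 and 0.01 against 10.9 and 4.54, while its near relative Scd1 did not pass 0.01 in any library; reads that fit both genes could be split between them, and the counting is not given.

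Srebf1, which encodes SREBP-1 and carries the second pair of half-sites above, read 7.61 FPKM in control 1 and at most 0.17 in the other libraries. Pltp, a phospholipid transfer protein, read 6.21 FPKM in control 1 and was listed at 0 in the other 3. In Srebf1 and Pltp, control 1 held over 90% of the FPKM of the 4 libraries together. Exons of Pltp share 495 of 2562 bases with Ctsa on the opposite strand, at 107 and 69.3 FPKM in controls against 321 and 38.8 in knockouts. Soat1, which esterifies cholesterol for storage, read 17.4 and 5.46 FPKM in controls against 93.4 and 18.5 in knockouts. It was above 1 FPKM in all 4 libraries, with means of 11.4 ± 8.42 and 55.9 ± 53.0 FPKM (SD, n = 2 each); knockout 2 exceeded control 1 by little, and the difference was 1.98 ± 1.54 (SE; limma adjusted p = 0.698). It was 0.84 without knockout 1, 1.22 without control 2, 3.12 without knockout 2 and 2.73 without control 1, and 0.90 after quantile normalization and 1.15 after median ratio scaling.

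**Figure D3:**
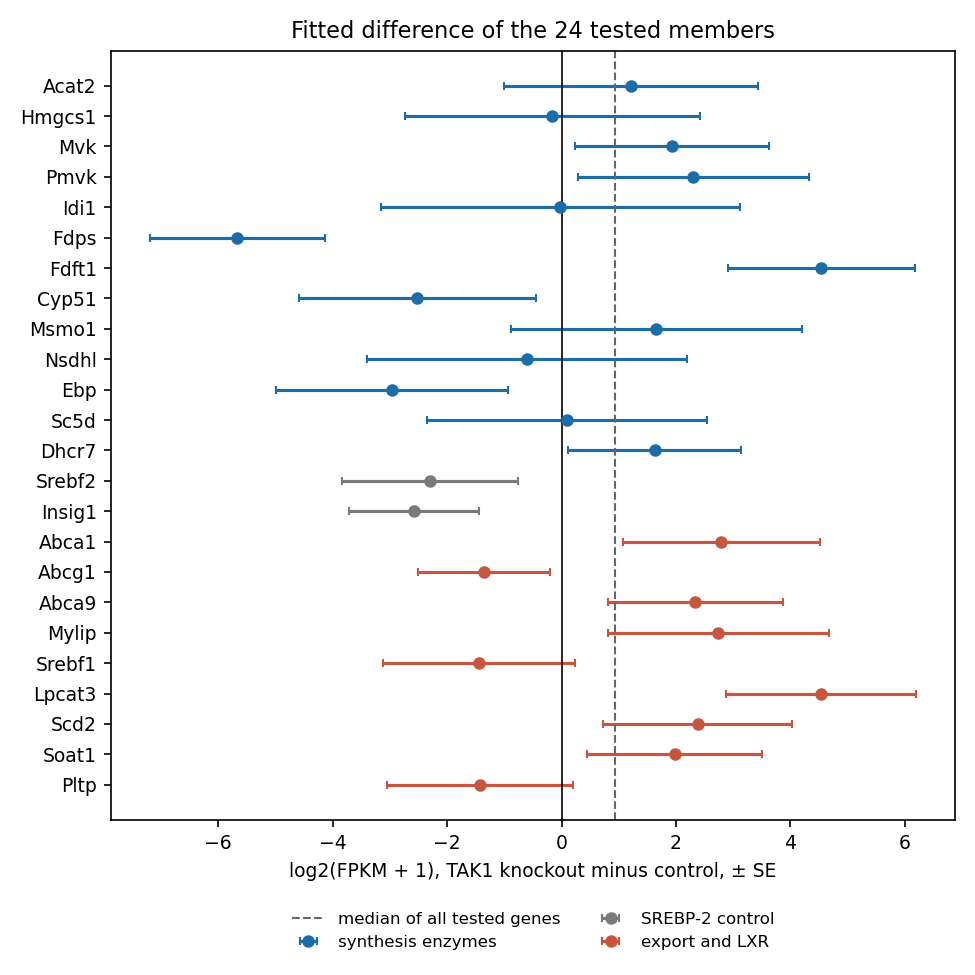
Fitted difference (points) and its standard error (bars) of the 24 tested members in log2(FPKM + 1), knockout less control; the dashed line marks the median of all tested genes, 0.94. Enzymes spread from -5.67 (Fdps) to 4.54 (Fdft1), and 6 of the 9 export and LXR genes lie to the right of the dashed line.

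Export and LXR genes had smaller median gaps between replicate libraries than the enzymes. The median gap between the 2 knockouts was 1.10 log2 units for the 9 export and LXR genes and 3.68 for the 13 enzymes, against 1.66 for all tested genes. Between the 2 controls it was 2.03 and 4.001, against 1.02 for all. The wider gap exceeded the difference between groups in 5 of the 9 export and LXR genes (55.6%), against 78.9% of all tested genes. At 1 FPKM or more there were 7 and 4 of the 11 genes in the controls and 7 in each knockout, the same 7 genes in both. The summed FPKM of the 11 was 96.9 and 300.5 in controls against 264 and 212 in knockouts, but Abcg1 alone made up 88.4% of the sum in control 2. Without the highest gene of each library the sums were 41.1 and 34.7 against 171 and 134. That gene was Abcg1 in both controls, Soat1 in knockout 1 and Lpcat3 in knockout 2, so these sums cover different genes. The sum of the 16 enzymes was 789 and 259 FPKM in controls against 388 and 197 in knockouts. No test was made of the difference between the 2 lists.

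**Figure D4:**
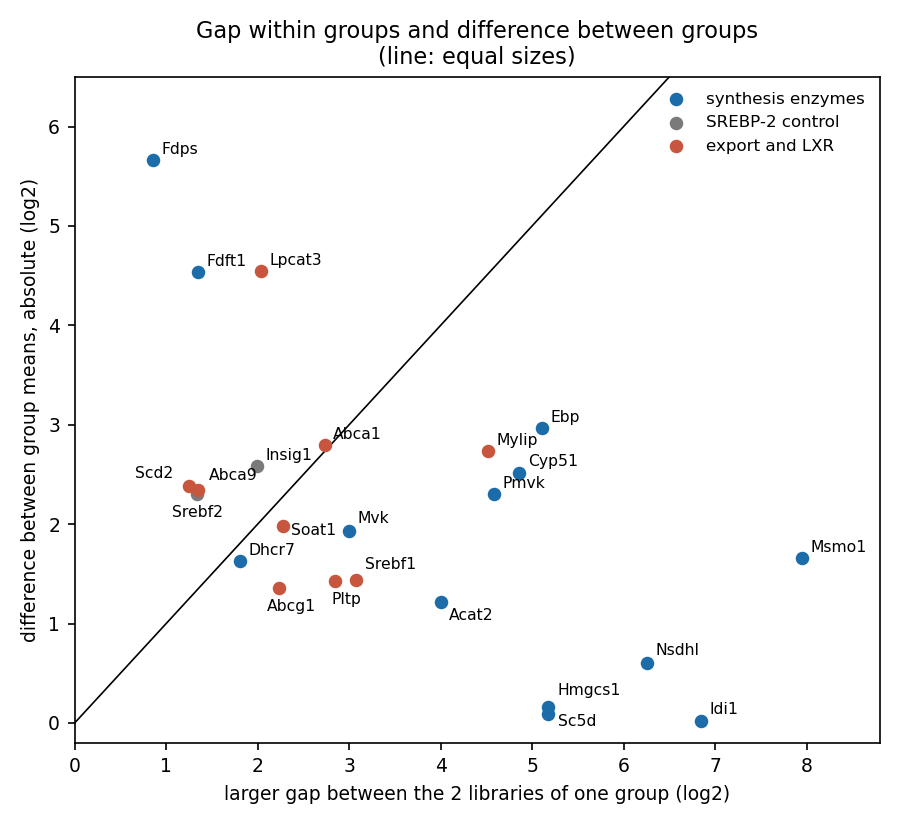
For each of the 24 tested members, the wider gap between the 2 libraries of one group (x) and the absolute difference between group means (y), both in log2(FPKM + 1) units; points above the line differ more between groups than within them. Fdps, Fdft1 and Lpcat3 stand well above the line, and Msmo1, Idi1, Nsdhl, Hmgcs1 and Sc5d far below it.

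Among genes of uptake and transport inside the cell, 13 of 15 were tested, of which 4 lay above both controls (30.8%, against 27.8% of all tested genes), 1 below (7.69%, against 11.4%) and 8 overlapped, and none passed the test. Both shares were near those of all tested genes. The 4 above, Lrp1, Osbp, Stard3 and Vldlr, averaged under 1 FPKM in the controls and passed the filter only through the knockouts. Npc2, which carries cholesterol out of lysosomes, was the steadiest of the genes named, at 303 and 296 FPKM in controls against 311 and 271 in knockouts (difference -0.05 ± 0.60, SE; limma adjusted p = 0.983). Msr1, a scavenger receptor for modified lipoproteins that macrophages also carry, read 160 and 253 FPKM in controls against 123 and 5.95 in knockouts. Osbpl9, an oxysterol-binding protein relative, read 76.9 and 0.20 against 50.1 and 118. Monocyte markers also summed to less in the knockouts (58.8 and 4.14 FPKM, against 1099.9 and 1530), and their part in Msr1 was not tested.

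Apoe, an apolipoprotein that receives exported cholesterol, had a higher FPKM in every library than any of the export and LXR genes. It read 4904 and 4968 FPKM in controls against 9190 and 1647 in knockouts, so the controls agreed and lay between the knockouts (difference -0.34 ± 0.74, SE; limma adjusted p = 0.842). Apoc2 read 198 and 390 FPKM in controls against 113 and 0.26 in knockouts, and Apoc1 read 0 and 17.2 against 334 and 0. Of 15 genes of apolipoproteins, other export and oxysterols, 6 were tested, with 0 above both controls (27.8% of all tested genes) and 1 below (Apoc2; 16.7%, against 11.4%), and none passed the test. Of 13 isoprenoid branch genes, 9 were tested, with 4 above (44.4%, against 27.8% of all tested genes) and 0 below (11.4% of all), and none passed. Among these 4, Ggps1, Pdss2 and Zmpste24 averaged under 1 FPKM in the controls and passed the filter only through the knockouts. Fnta, a subunit of the protein prenyl transferases, read 50.1 and 121 FPKM in controls against 122 and 314 in knockouts, while Pdss1, of the ubiquinone side chain, read 51.2 and 0.22 against 0.17 and 52.4.

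Fatty acid synthesis, which SREBP-1 and LXR control, was mostly at the floor. Of 14 genes, 6 were tested, of which 4 lay above both controls (66.7%, against 27.8% of all tested genes) and 0 below (11.4% of all), and none passed the test. Of these 4, Elovl6 read 0.01 and 0.01 FPKM in controls against 28.7 and 0.03 in knockouts, and passed the filter only through knockout 1. Acly, which makes cytosolic acetyl-CoA, read 1.21 and 20.2 FPKM in controls against 31.1 and 33.1 in knockouts. Mid1ip1, an activator of acetyl-CoA carboxylase, read 24.6 and 0.10 against 43.7 and 38.4, and Acsl3, an acyl-CoA synthetase, read 2.60 and 4.71 against 42.6 and 7.81. In Acly and Mid1ip1 the knockouts agreed closely and the controls did not.

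Leaving out 1 knockout produced calls, most of them in the direction of higher in the lone knockout library, which is then assumed to vary like the controls. Without knockout 1, Dhcr7 was called higher (limma adjusted p = 0.0432), 1 of 21 members tested (4.76%), where 10.2% of all genes tested there were called higher. Without knockout 2, Abca1, Fdft1, Mvk and Pmvk were called higher (limma adjusted p = 0.0295 to 0.0463), 4 of 23 members tested (17.4%), where 18.5% of all genes were. All 5 read under 1 FPKM in both controls. Without control 1, or without control 2, no member was called.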

How the data were processed

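The authors deposited 1 table of FPKM values, 1 column per library, named as such per the file headers. Reads were placed on mm10, per the submitters' processing notes. Neither aligner nor quantifier nor annotation is given in the sources used here. Per the labels' protocols, cDNA was made by a SMART-seq method and amplified by PCR, without molecular identifiers. FPKM keep no read counts, so depth is unknown and no counting interval is given.

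From these values, log2(FPKM + 1) was taken for genes averaging 1 FPKM or more over the libraries and fitted by group with limma 3.58.1 in R 4.3.3 (trended variance; degrees of freedom were 2 residual and 3.99 prior). Benjamini-Hochberg adjustment was over 7823 genes. For 2 against 2, the smallest two-sided p of an exact permutation test is 0.333. Code was tested on simulated data, where recovery of changed genes was required only at noise far below the gaps between these libraries. That test therefore does not check the fit at the noise of these data. Coordinates and overlaps came from GENCODE M21 (GRCm38), promoters from RefSeq tables (GRCm38.p6); figures used matplotlib 3.10.9.

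Members and lists were chosen with earlier results of these data known. Named were all tested members with every value, the others by their highest value or all values, and of each other list of the pathway the 3 genes with the highest mean. A gene that the rule covers may be left unreported here. Cd163 and the genes with overlapping exons were named after their values were seen. So were the pathway genes named only for how they passed the filter. The rule also covered 3 genes per marker list, for which mainly sums and counts are given. Alternatives were pseudocounts, filters, scalings, an untrended variance, the replicate number as a block, and each library left out.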

Additional observations from a re-analysis of the deposited data

How the results depend on the processing

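The member tests stayed without a call in the main fit and in every alternative that used all 4 libraries, and only leaving out a knockout called any member; 2 libraries per group and an unknown depth limit every statement. The median of the synthesis enzymes, 0.09, changed sign with a pseudocount of 5 FPKM (-0.020), no filter (-0.016), a filter at a mean of 5 FPKM (-0.025), median ratio scaling (-0.31) and quantile normalization (-0.44), and ran from -2.32 to 2.31 with 1 library left out. The median of export and LXR genes, 2.34, fell to 0.90 after quantile normalization, where that of all tested genes was -0.10. With no filter and no such scaling it was 1.98, where that of all tested genes was 0.02. That setting tested 14390 genes, against 7823 in the main fit, and 11 of the list, against 9. The genes it added averaged under 1 FPKM, so its median of all tested genes is not like that of the main fit. With 1 library left out, the median of export and LXR genes ran from 1.25 to 2.93. Enzymes above both controls, 3 of 13 (27.8% of all tested genes), numbered 1 of 11 with a filter at 5 FPKM. With 1 library left out they ran from 2 of 11, without knockout 1, to 7 of 12, without control 1. Without control 1, 45.3% of all tested genes lay above. Enzymes below, 2 of 13 (11.4% of all tested genes), ran from 3 of 12, without control 1, to 6 of 13, without control 2. Without control 2, 27.3% of all tested genes lay below. Export and LXR genes above, 6 of 9, numbered 2 of 9 after quantile normalization, where 18.1% of all tested genes lay above. Those below, 1 of 9, numbered 0 of 9 with equal FPKM sums. With 1 library left out they ran from 1 of 7, without control 1, to 3 of 9, without control 2. The shares of all tested genes in the remaining settings are not given. Counts in those settings are therefore no result about the members. With 1 library left out, calls over all genes ran from 0 to 1306 higher and from 0 to 5 lower, and members called from 0 to 4. The replicate numbers gave no sign of pairing (correlation of same-numbered deviations 0.02); with the replicate block 15 genes were called higher and 20 lower, and 0 of them were members. The causes were not tested. Of the 208 values of single genes in the alternatives that used all 4 libraries, 4 changed sign. They were those of Sc5d (-0.14 with a pseudocount of 5 FPKM, -0.31 with median ratio scaling, -0.36 with quantile normalization) and Idi1 (0.10 with equal sums). With 1 library left out, 11 of 88 values changed sign: Acat2 ran from -0.78 to 3.22, Hmgcs1 from -2.74 to 2.43, Idi1 from -3.45 to 3.40, Msmo1 from -2.32 to 5.63, Nsdhl from -3.73 to 2.53 and Sc5d from -2.49 to 2.68.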
